A study of Mus musculus with 6 samples.

Results

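The genes described here drive or mark the cell division cycle: 42 named genes, of which 17 regulate G1 phase, 11 copy or supply DNA in S phase and 14 act in late S phase and mitosis. They were taken as a list of names, chosen with earlier results of these data known. The rule asks no measured value of a gene, and signal was used only to pick the probe that stands for it. A named probe was found for 41 of the 42 (Mki67 was not analysed here), so all 17 G1 regulators, all 11 replication genes and 13 mitosis genes were followed, out of 17015 named genes on the array. All 41 gave a signal well above background on all 6 arrays, so no gene was lost to the filter on dim signals.

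The series profiled cultured pluripotent mouse cells of strain 129 on one-colour Agilent arrays, with 1 array for each of 6 groups. E5.5 epiblast stem cells (EpiSCs) were grown with SB431542 or without it, and so were E3.5 EpiSCs and E3.5 mouse embryonic stem (mES) cells. SB431542 is a kinase inhibitor of the receptors that carry Activin, Nodal and TGF-beta signals (their type I subunits), and treated cultures were given 20 µM each day for 4 days. All cultures were kept in Knockout DMEM with 20% KSR, a serum replacement. EpiSCs are primed pluripotent cells that need Activin or Nodal signals to stay so, and mES cells are naive pluripotent cells. The labels do not say whether a line is 1 clone or whether cultures were pooled.

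In G1 phase, D-type cyclins bind Cdk4 and Cdk6, and E-type cyclins bind Cdk2. These kinases phosphorylate the pocket proteins Rb1, Rbl1 and Rbl2 and so release E2F transcription factors, which switch on the genes of DNA replication. The INK4 proteins (from Cdkn2a, Cdkn2b and Cdkn2c) block Cdk4 and Cdk6, and the Cip/Kip protein p27 (from Cdkn1b) blocks mainly Cdk2. Pluripotent cells in culture are known for a short G1 phase, and in mES cells the pocket proteins are known to be largely phosphorylated. The Mcm2 to Mcm7 proteins form the replicative helicase, which Cdc6 and Cdt1 load onto origins. Genes of mitosis are repressed in G1 by the DREAM complex, which holds the pocket protein Rbl1 or Rbl2 and binds a short element called CHR, often near CCAAT boxes.

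The promoters of these genes were searched for the short motifs by which E2F and DREAM are known to be recruited. RefSeq promoter windows on GRCm38.p6, from 250 bases before to 50 after the gene start, were listed for 35 of the 41 genes. The E2F letters searched were TTTCCCGC, TTTGGCGC and TTTCGCGC, on both strands and with overlapping matches counted. They were found in 6 of 10 replication genes (60%), 5 of 14 G1 regulators (35.7%) and 1 of 11 mitosis genes (9.09%), against 573 of 27025 genes in the promoter table (2.12%). The CHR letters TTTGAA or TTCGAA were found in 8 of 11 mitosis genes (72.7%), 2 of 10 replication genes (20%) and 4 of 14 G1 regulators (28.6%), against 21.7% of all genes in the table. CCAAT was found in 9 of 11 mitosis genes (81.8%), 7 of 10 replication genes (70%) and 7 of 14 G1 regulators (50%), against 41.1% of all. A match describes letters only, and no binding was measured.

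Windows of 3 genes are printed with their E2F letters in capitals, E2f2 because its level differed with SB431542 and Mcm5 and Mcm6 as replication genes with overlapping matches. The E2f2 window is chr4:136172024-136172323 on the plus strand and is the first of 2 windows listed for the gene, the Mcm5 window is chr8:75109259-75109558 on the plus strand, and the Mcm6 window is chr1:128359656-128359955 on the minus strand. In Mcm5 a forward and a reverse match overlap, as they do at the first of the places marked in Mcm6.
E2f2: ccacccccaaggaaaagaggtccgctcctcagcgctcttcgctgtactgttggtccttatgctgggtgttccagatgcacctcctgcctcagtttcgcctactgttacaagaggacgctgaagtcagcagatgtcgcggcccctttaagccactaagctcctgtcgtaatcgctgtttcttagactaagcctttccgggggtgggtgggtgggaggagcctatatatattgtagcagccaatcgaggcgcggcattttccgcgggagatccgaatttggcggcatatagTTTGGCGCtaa
Mcm5: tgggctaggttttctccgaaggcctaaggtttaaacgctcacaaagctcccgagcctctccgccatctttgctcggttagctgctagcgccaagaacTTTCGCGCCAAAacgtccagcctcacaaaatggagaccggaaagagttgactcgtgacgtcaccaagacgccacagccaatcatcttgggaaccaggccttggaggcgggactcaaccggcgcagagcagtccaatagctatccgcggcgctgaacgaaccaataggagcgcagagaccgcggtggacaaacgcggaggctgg
Mcm6: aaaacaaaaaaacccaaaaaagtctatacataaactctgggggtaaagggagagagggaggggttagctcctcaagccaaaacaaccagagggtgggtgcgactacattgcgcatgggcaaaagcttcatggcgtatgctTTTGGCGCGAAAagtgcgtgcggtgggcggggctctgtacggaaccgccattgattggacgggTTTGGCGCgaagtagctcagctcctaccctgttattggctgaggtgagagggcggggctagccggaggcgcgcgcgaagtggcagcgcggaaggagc

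Windows of 2 mitosis genes are printed for contrast with their CHR letters in capitals. The Ccnb2 window is chr9:70421505-70421804 and the Cdc20 window is chr4:118437294-118437593, both on the minus strand. The E2F letters were found in neither.
Ccnb2: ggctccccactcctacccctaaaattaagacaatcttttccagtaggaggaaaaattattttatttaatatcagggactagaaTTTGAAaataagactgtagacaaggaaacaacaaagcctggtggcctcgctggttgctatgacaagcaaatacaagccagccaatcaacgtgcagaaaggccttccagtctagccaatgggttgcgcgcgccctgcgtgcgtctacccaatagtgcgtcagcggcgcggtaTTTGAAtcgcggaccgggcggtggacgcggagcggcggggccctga
Cdc20: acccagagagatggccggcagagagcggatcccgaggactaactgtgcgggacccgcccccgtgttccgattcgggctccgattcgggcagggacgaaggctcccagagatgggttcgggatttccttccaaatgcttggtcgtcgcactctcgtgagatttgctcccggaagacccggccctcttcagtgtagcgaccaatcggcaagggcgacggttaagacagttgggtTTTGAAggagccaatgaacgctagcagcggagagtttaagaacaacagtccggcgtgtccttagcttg

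Each signal is a log2 value set against the 75th percentile of its array's gene probes, so it belongs to its own probe and is not set against that of another gene. The share of spots well above background was 82.6% to 85.7% per array, and 0 spots were saturated. The 75th percentile lay between intensities of 1194 and 1803, highest on the E3.5 EpiSC + SB431542 array. The E5.5 EpiSC pair and the mES pair shared slide 1, whereas the E3.5 EpiSC + SB431542 array was on slide 3 and the E3.5 EpiSC array on slide 2, so slide and treatment cannot be told apart in the E3.5 line. The untreated arrays mostly carried the markers of their labels. Pou5f1, the gene for Oct4, stood at 5.88 in E5.5 EpiSCs, 5.73 in E3.5 EpiSCs and 5.58 in mES cells, and Fgf5, a primed epiblast gene, at 4.32, 3.07 and -2.62 in the same order. Of 5 primed epiblast markers, 5 were higher in E5.5 EpiSCs than in mES cells and 4 in E3.5 EpiSCs. The exception there was Otx2, at -0.18 against -0.04 in mES cells. The naive marker Zfp42 stood at -5.15 in E5.5 EpiSCs and -2.02 in E3.5 EpiSCs, against 5.77 in mES cells. In treated EpiSCs Pou5f1 was far lower, at -4.38 on the E5.5 EpiSC + SB431542 array and -5.40 on the E3.5 EpiSC + SB431542 array. Sox2, also a marker shared by pluripotent cells, was not lower. It stood at 2.79 in treated and 2.47 in untreated E5.5 EpiSCs, and at 2.77 in treated and 2.10 in untreated E3.5 EpiSCs. Precision is limited by the number of arrays.

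Cyclin D2 set the EpiSCs apart from mES cells. Ccnd2 stood at 2.93 in untreated E5.5 EpiSCs and 3.83 in untreated E3.5 EpiSCs, against -0.74 in untreated mES cells. With SB431542 it stood at 4.25 in E5.5 EpiSCs and 4.52 in E3.5 EpiSCs, against -0.39 in mES cells, so all 4 EpiSC arrays lay above both mES arrays. In the untreated comparison Ccnd2 rose by a log2 difference of 4.11 ± 0.49 (SE; 2 arrays of EpiSCs, 1 of mES cells), which is 17.3-fold, with a 95% interval of 2.84 to 5.39 and an adjusted p of 0.0435 by limma. The other probes of the gene gave 4.32 and 3.96. By quantile normalization the difference was 4.09 and the adjusted p 0.0532. Without the E5.5 EpiSC + SB431542 array, or without the E3.5 EpiSC + SB431542 array, the adjusted p was 0.101 for the same difference, and then 0 genes of the whole array passed. In bulk RNA, fewer cells that express a gene and less RNA per cell cannot be told apart. In the same comparison 19 of 20 fibroblast markers were higher in EpiSCs, with a median of 1.0 (all genes, -0.06) and 0 passing. The part of fibroblasts in the Ccnd2 values was not tested.

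Ccnd2 was 1 of 41 genes of the set to pass in that comparison, as a rise, while 0 fell. Over all 16152 genes tested, 0.39% passed as higher and 1.11% as lower, 1.5% in either direction. At an unadjusted limma p under 0.05 were 3 genes of the set (1 higher, 2 lower), a smaller share than the 16.4% of all genes.

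The 2 genes that were lower at that level, without passing, were Cdkn2a and Rbl2. Cdkn2a, which encodes p16 and p19Arf, stood at -5.35 in E5.5 EpiSCs and -6.00 in E3.5 EpiSCs, against -3.34 in mES cells. The difference was -2.33 ± 0.42, or 5.04-fold lower in EpiSCs (limma adjusted p = 0.0881). Rbl2, the gene for the pocket protein p130, stood at -5.35 and -5.73 in E5.5 and E3.5 EpiSCs, against -3.55 in mES cells, a difference of -1.99 ± 0.45 (adjusted p = 0.132). Both genes were thus lower on each untreated EpiSC array than on the mES array, and the second Rbl2 probe gave -1.39. The dimmest spots well above background stood at -6.32 on the E5.5 EpiSC array and -6.37 on the E3.5 EpiSC array. The EpiSC values of both genes lay close to these, so the fold sizes are uncertain.

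The other D- and E-type cyclins did not pass. Ccnd3 stood at 3.70 in E5.5 EpiSCs and 4.39 in E3.5 EpiSCs, against 3.77 in mES cells (95% interval of the difference -1.18 to 1.73). Ccne1 stood at 5.07 and 5.14 in E5.5 and E3.5 EpiSCs, against 5.86 in mES cells, a difference of -0.76 with a 95% interval of -2.23 to 0.71. Ccne2 stood at -1.37 and -1.15 in E5.5 and E3.5 EpiSCs, against -1.44 in mES cells. The 95% interval for Ccne2 was -1.48 to 1.85, so a 2-fold difference either way lay within the intervals of Ccnd3 and Ccne2.

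Among the kinases, Cdk4 stood at 4.11 in E5.5 EpiSCs and 3.85 in E3.5 EpiSCs, against 3.90 in mES cells, so the arrays overlapped. Cdk6 stood at 1.22 and 0.92 in E5.5 and E3.5 EpiSCs, against 0.16 in mES cells, a difference of 0.91 ± 0.75 (adjusted p = 0.660). Cdk2 stood at -1.64 and -0.86 in E5.5 and E3.5 EpiSCs, against -0.79 in mES cells. Of the inhibitors besides Cdkn2a, Cdkn1b (p27) stood at 0.27 and 0.05 in E5.5 and E3.5 EpiSCs, against -0.67 in mES cells, a difference of 0.83 ± 0.32 that did not pass (adjusted p = 0.316). Cdkn2b (p15) stood at -0.31 and -1.09 in E5.5 and E3.5 EpiSCs, against -0.28 in mES cells. Cdkn2c (p18) stood at -1.76 and -2.76 in E5.5 and E3.5 EpiSCs, against -1.64 in mES cells.

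**Figure D1:**
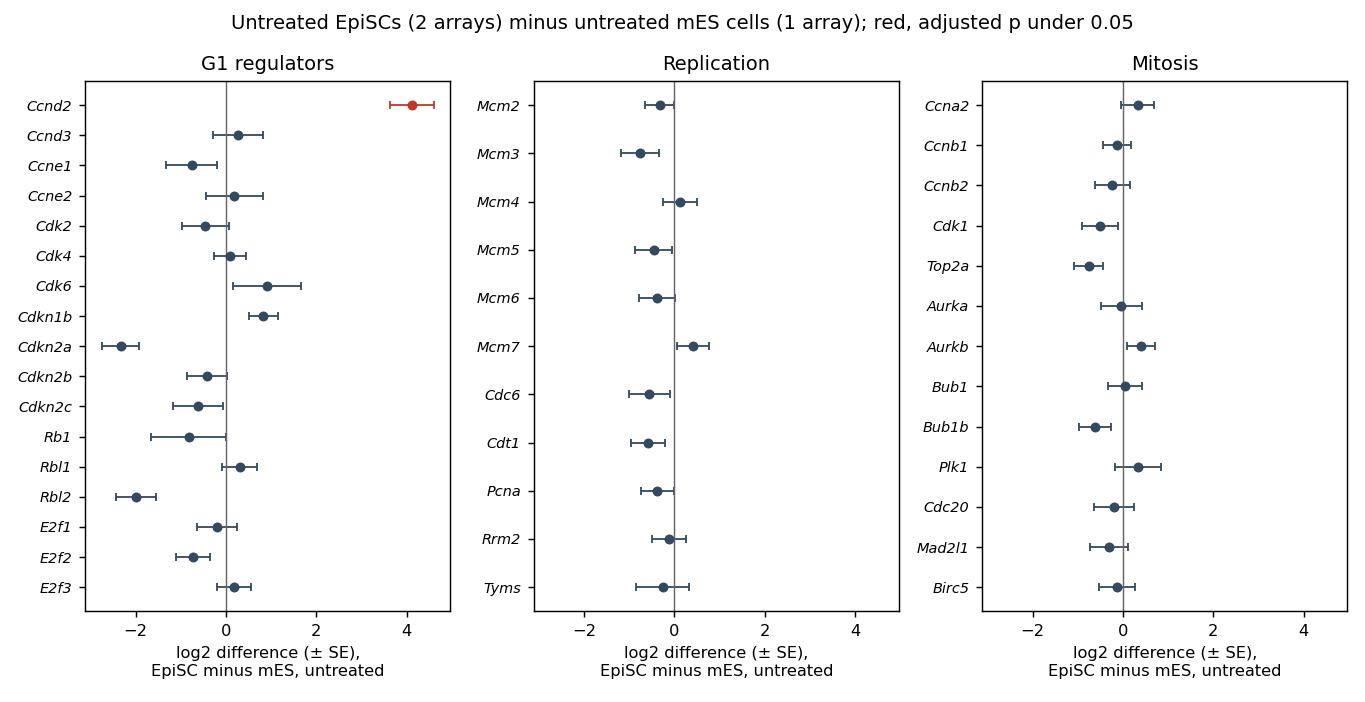
Log2 difference of each gene, untreated EpiSCs (n = 2 arrays) minus untreated mES cells (n = 1 array), with bars of ± 1 standard error from limma, in panels for G1 regulators, replication and mitosis. Ccnd2 at 4.11 is the gene drawn in red, the colour for an adjusted p under 0.05, while replication and mitosis genes all lie between -0.76 and 0.41.

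With SB431542 the G1 regulators with the largest differences in EpiSCs were Cdk6, lower, and E2f2, Rbl2, Rb1 and Cdkn2c, higher. In the comparison of 2 treated with 2 untreated EpiSC arrays, limma without a block called 0 of the 41 genes (338 of 16152 genes on the array passed, 2.09% in all, 0.892% as higher and 1.2% as lower). At an unadjusted limma p under 0.05 were 5 genes of the set, against 19.8% of all genes. Cdkn2c, E2f2, Rbl1 and Rbl2 were the 4 higher ones and Cdk6 the 1 lower, while Rb1 was at 0.0575. The line pairs each treated with an untreated array, and with the line as a block 3 of the 41 genes passed, 2 as higher and 1 as lower, against 2.5% and 3.26% of all genes (5.76% in either direction). The count in either direction lies near the share of all genes, so it does not set these genes apart as a group. The block leaves 1 residual degree of freedom in place of 2.

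Cdk6 fell with SB431542 in that blocked fit. It stood at -1.03 in treated and 1.22 in untreated E5.5 EpiSCs, at -2.70 in treated and 0.92 in untreated E3.5 EpiSCs, and at -0.22 in treated and 0.16 in untreated mES cells. On this probe both treated EpiSC arrays lay below all 4 other arrays. The difference in EpiSCs was -2.93 ± 0.42 with the block (7.63-fold lower, adjusted p = 0.0307) and the same with an SE of 0.61 without it (adjusted p = 0.10). On slide 1 alone, the E5.5 pair, the difference was -2.25. A second Cdk6 probe gave -1.67 in EpiSCs, with -0.98 in the E5.5 pair and -0.57 in the mES pair. The order of arrays did not hold on it, since treated E5.5 EpiSCs stood at -3.07, above treated mES cells at -3.24.

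E2f2, an activating E2F, rose with SB431542 in the blocked fit. It stood at 2.59 in treated and 0.66 in untreated E5.5 EpiSCs, at 2.92 in treated and 1.09 in untreated E3.5 EpiSCs, and at 1.75 in treated and 1.60 in untreated mES cells. The treated EpiSC arrays were the highest of the 6 and the untreated EpiSC arrays the lowest. The difference in EpiSCs was 1.88 ± 0.29 with the block (3.68-fold, adjusted p = 0.0348) and 1.88 ± 0.31 without it (adjusted p = 0.0658). It passed without the block by normexp background correction (2.01, adjusted p = 0.0302) and among genes above background on all 6 arrays (adjusted p = 0.0416). On slide 1 alone it was 1.93.

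Rb1, the retinoblastoma gene, rose with SB431542 in the blocked fit. It stood at 0.14 in treated and -1.51 in untreated E5.5 EpiSCs, at 1.56 in treated and -0.20 in untreated E3.5 EpiSCs, and at -0.11 in treated and -0.03 in untreated mES cells. The EpiSC lines differ in level by nearly as much as the treatment, so the SE was 0.68 without the block (adjusted p = 0.265) and 0.29 with it (1.70, 3.26-fold, adjusted p = 0.0425). A second probe gave 1.37.

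The other pocket protein genes did not pass in either fit. Rbl2 stood at -4.06 in treated and -5.35 in untreated E5.5 EpiSCs, at -3.33 in treated and -5.73 in untreated E3.5 EpiSCs, and at -3.58 in treated and -3.55 in untreated mES cells. The treated EpiSC values thus lay near the mES values, while the untreated EpiSC values lay close to the dimmest spots well above background. The difference in EpiSCs was 1.85 ± 0.37 (adjusted p = 0.0936 without the block, 0.0668 with it), but a second Rbl2 probe gave 0.41. Rbl1 (p107) differed by 0.83 in the E5.5 pair, 1.41 in the E3.5 pair and -0.32 in the mES pair, and by 1.12 ± 0.32 in EpiSCs without the block (adjusted p = 0.169, or 0.123 with the block).

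Among the inhibitors, Cdkn2c (p18) stood at -0.46 in treated and -1.76 in untreated E5.5 EpiSCs, at -1.02 in treated and -2.76 in untreated E3.5 EpiSCs, and at -1.57 in treated and -1.64 in untreated mES cells. The treated EpiSC arrays lay above the other 4 arrays, and the difference of 1.52 ± 0.45 did not pass (adjusted p = 0.181 without the block, 0.0624 with it). With treatment Cdkn1b stood at 0.50 in E5.5 EpiSCs, 0.41 in E3.5 EpiSCs and -0.28 in mES cells, which is 0.23, 0.36 and 0.39 above the untreated array of each line. Treated Cdkn2b stood at -1.09, -1.20 and 0.29 in the same order, differences of -0.78, -0.11 and 0.57 from the untreated arrays. Treated Cdkn2a stood at -6.33, -6.09 and -3.30, differences of -0.99, -0.09 and 0.04. The dimmest spots well above background stood at -6.57 on the treated E5.5 EpiSC array and -6.76 on the treated E3.5 EpiSC array. The treated Cdkn2a values in EpiSCs lay close to these. The INK4 genes thus did not share a sign in treated EpiSCs, though Cdkn2a and Cdkn2b were nearly unchanged in the E3.5 pair.

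The cyclins varied by line. Ccnd2 differed by 1.32 in the E5.5 pair, 0.69 in the E3.5 pair and 0.34 in the mES pair, and its difference in EpiSCs, 1.0 ± 0.40, did not pass (adjusted p = 0.263, or 0.154 with the block). Ccnd3 stood at 4.90 in treated and 3.70 in untreated E5.5 EpiSCs, but at 3.99 in treated and 4.39 in untreated E3.5 EpiSCs, and at 3.99 in treated and 3.77 in untreated mES cells. Ccne1 stood at 4.90 in treated and 5.07 in untreated E5.5 EpiSCs, at 3.74 in treated and 5.14 in untreated E3.5 EpiSCs, and at 5.88 in treated and 5.86 in untreated mES cells. Its low value was that of 1 array, E3.5 EpiSC + SB431542. Ccne2 stood at -0.85 in treated and -1.37 in untreated E5.5 EpiSCs, at -2.22 in treated and -1.15 in untreated E3.5 EpiSCs, and at -1.83 in treated and -1.44 in untreated mES cells.

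Cdk4 and Cdk2 had small differences. Cdk4 stood at 4.47 in treated and 4.11 in untreated E5.5 EpiSCs, at 4.10 in treated and 3.85 in untreated E3.5 EpiSCs, and at 3.94 in treated and 3.90 in untreated mES cells. The difference in EpiSCs, 0.30, had a 95% interval of -0.46 to 1.07. Cdk2 stood at -1.44 in treated and -1.64 in untreated E5.5 EpiSCs, at -0.78 in treated and -0.86 in untreated E3.5 EpiSCs, and at -0.79 in both treated and untreated mES cells, and its 2 probes disagreed in sign. E2f1 differed by 0.88 in the E5.5 pair, 0.02 in the E3.5 pair and -0.02 in the mES pair, and E2f3 by 0.20, -0.45 and 0.00.

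**Figure D2:**
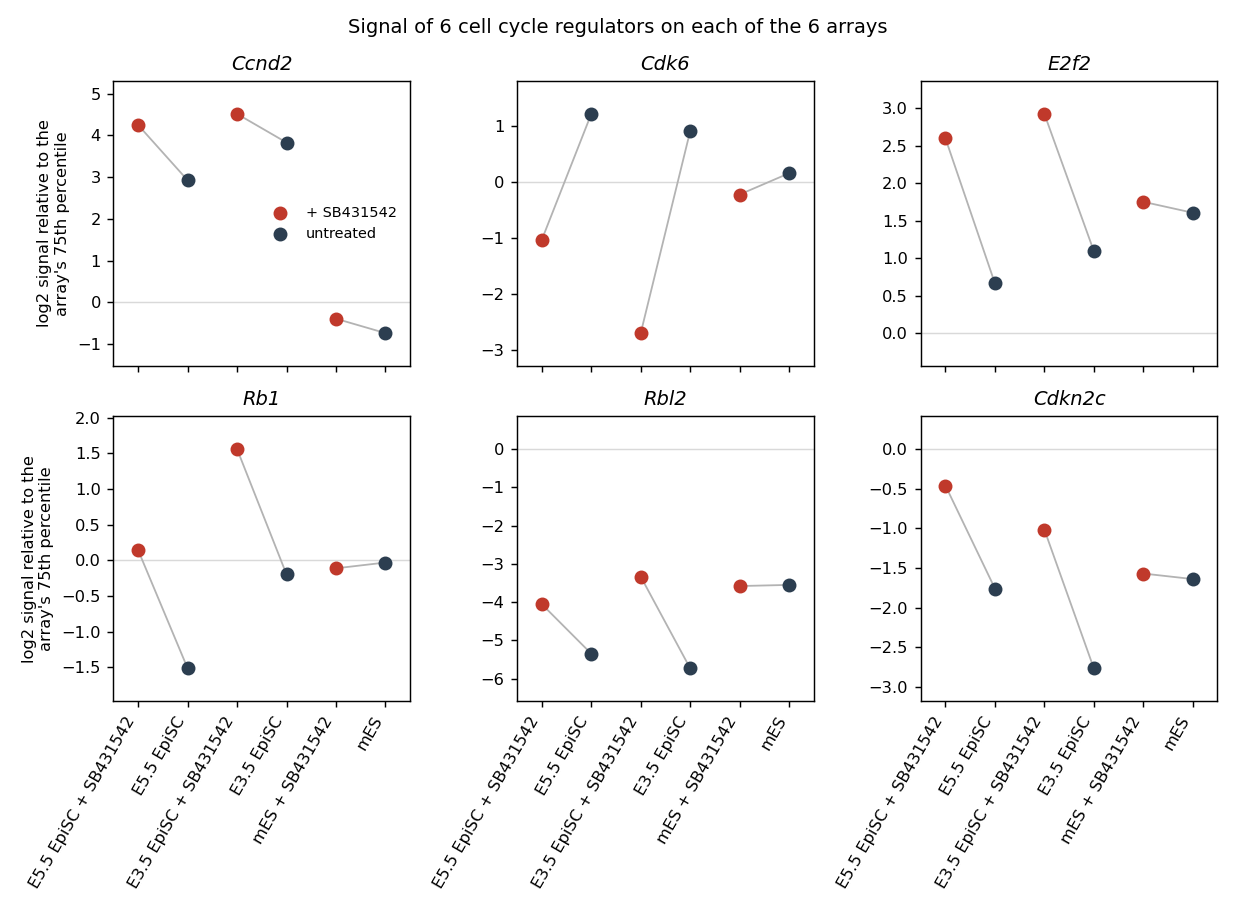
Log2 signal of Ccnd2, Cdk6, E2f2, Rb1, Rbl2 and Cdkn2c on each of the 6 arrays, relative to the array's 75th percentile, with a line joining the treated (red) and untreated (dark) array of each line. Each panel has its own vertical scale. On the probes drawn, Ccnd2 is high on all 4 EpiSC arrays. Cdk6 is lowest on the treated EpiSC arrays at -1.03 and -2.70, and E2f2 is highest there at 2.59 and 2.92.

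Whether EpiSCs responded more than mES cells was tested as the difference of the treatment effects. Of the 41 genes 0 passed by limma, as did 0% of all 16152 genes, and 3 were higher at an unadjusted p under 0.05 (6.9% of all genes). These were E2f2 (1.73 ± 0.53, adjusted p = 0.608), Rbl2 (1.88 ± 0.63, adjusted p = 0.667) and Rbl1 (1.44 ± 0.55, adjusted p = 0.724), chosen for naming after their values were seen. Cdk6 stood at -2.55 ± 1.06 (adjusted p = 0.766, or 0.364 with the line as a block). The difference between the cell classes was therefore not shown for any of these genes. Across all 3 lines, 3 treated against 3 untreated arrays with the line as a term, 0 of the 41 genes and 0% of all genes passed, and 4 genes of the set (3 higher, 1 lower) had an unadjusted p under 0.05, against 8.64% of all genes.

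Levels of the replication genes ranged over the 6 arrays by 0.75 (Mcm2) to 1.70 (Tyms), and 6 of 11 stayed within 2-fold, against 34.3% of all genes tested and 4 of the 17 G1 regulators. Between untreated EpiSCs and mES cells, differences ran from -0.76 for Mcm3 to 0.41 for Mcm7, with 0 passing and a median of -0.38 (all genes, -0.06). The 95% intervals reached from -1.87 to 1.36, so changes of about 2-fold were not detectable for every gene.

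Of the helicase genes, Mcm3 was the one with the largest class difference, at 2.29 in E5.5 EpiSCs and 2.23 in E3.5 EpiSCs, against 3.02 in mES cells (-0.76 ± 0.42, adjusted p = 0.494). Of the loading factors, Cdt1 stood at 5.03 and 5.30 in E5.5 and E3.5 EpiSCs, against 5.75 in mES cells. Cdc6 stood at 0.83 and 1.07 in E5.5 and E3.5 EpiSCs, against 1.51 in mES cells, though its second probe gave the opposite sign. Rrm2, a subunit of ribonucleotide reductase, stood at 2.90 and 2.99, against 3.07 in mES cells, and Tyms, which makes thymidylate, at 4.79 in both EpiSC lines, against 5.05 in mES cells. For both suppliers of nucleotides the untreated arrays lay well within 2-fold of each other.

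With SB431542 the replication genes lay near their untreated values in the E5.5 and mES lines and mostly lower in the E3.5 line. The median difference was -0.02 in the E5.5 pair, -0.79 in the E3.5 pair and -0.04 in the mES pair, against -0.06, -0.31 and 0.02 for all genes. In the E3.5 pair 10 of 11 were negative, against 10216 of all 16152 genes, and 3 were at least 2-fold lower, against 20.1% of all genes, while 0 replication genes passed 2-fold in the other pairs. A pair of arrays has no test. The same array had the highest 75th percentile, and it and its untreated partner were on different slides. The part of either in these values was not tested.

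Tyms stood at 4.59 in treated and 4.79 in untreated E5.5 EpiSCs, at 3.35 in treated and 4.79 in untreated E3.5 EpiSCs, and at 4.87 in treated and 5.05 in untreated mES cells. Cdc6 stood at 0.84 in treated and 0.83 in untreated E5.5 EpiSCs, at 0.03 in treated and 1.07 in untreated E3.5 EpiSCs, and at 1.42 in treated and 1.51 in untreated mES cells. Mcm5, with its overlapping E2F letters, stood at 4.56 in treated and 4.67 in untreated E5.5 EpiSCs, at 3.94 in treated and 4.94 in untreated E3.5 EpiSCs, and at 5.38 in treated and 5.27 in untreated mES cells. In each case the E3.5 EpiSC + SB431542 array was the lowest of the 6 on these probes, but a second Cdc6 probe differed by only -0.11 in the E3.5 pair and was lowest on the mES arrays. With treatment Mcm3 stood at 2.30 in E5.5 EpiSCs, 1.58 in E3.5 EpiSCs and 2.78 in mES cells, and Cdt1 at 5.02, 4.51 and 5.97 in the same order. Rrm2 was the exception among the 11 in the E3.5 pair, at 3.80 in treated and 2.90 in untreated E5.5 EpiSCs, 3.28 in treated and 2.99 in untreated E3.5 EpiSCs, and 3.10 in treated and 3.07 in untreated mES cells.

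In the test over both EpiSC lines, 0 of 11 replication genes passed, with differences from -0.82 for Tyms to 0.59 for Rrm2 and a median of -0.40, against -0.19 for all genes. Mcm2, Mcm4, Mcm5, Mcm6 and Mcm7, the helicase subunits besides Mcm3, lay between -0.56 and -0.28. Pcna, the sliding clamp, stood at -0.25. The smallest adjusted p was 0.349, for Rrm2. Without the E3.5 EpiSC + SB431542 array the median was -0.14.

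**Figure D3:**
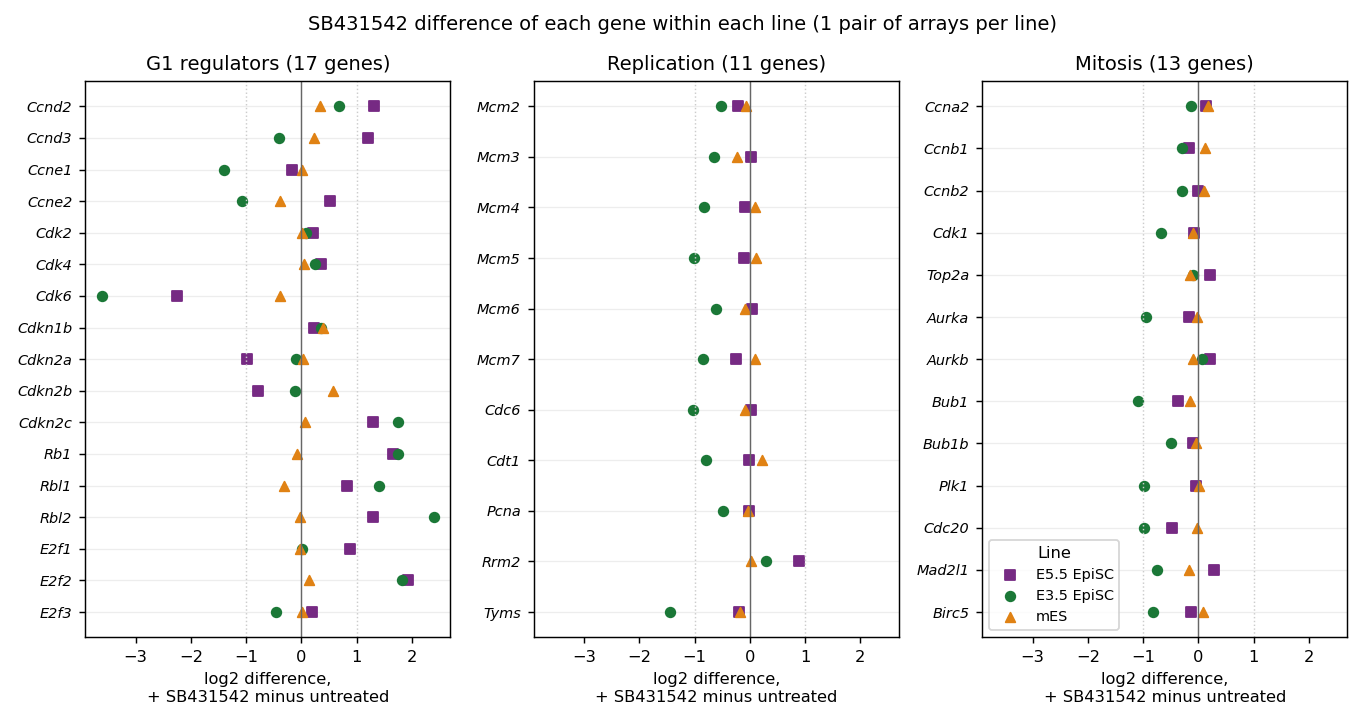
Log2 difference with SB431542 minus without it for each gene in each line, from 1 pair of arrays per line and so without error bars, in panels for G1 regulators, replication and mitosis; dotted lines mark 2-fold. G1 regulators spread from -3.61 (Cdk6, E3.5 EpiSC) to 2.40 (Rbl2, E3.5 EpiSC), whereas replication and mitosis genes cluster near 0 except in the E3.5 pair.

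Levels of the mitosis genes ranged over the 6 arrays by 0.54 (Ccna2) to 1.30 (Cdc20), with 8 of 13 within 2-fold. Between untreated EpiSCs and mES cells the median was -0.14, 0 of 13 passed, and differences ran from -0.76 for Top2a to 0.41 for Aurkb, with 95% intervals reaching from -1.61 to 1.67. Top2a, the topoisomerase that untangles sister DNA, stood at 2.72 in E5.5 EpiSCs and 2.79 in E3.5 EpiSCs, against 3.52 in mES cells (-0.76 ± 0.32, adjusted p = 0.360). Bub1b, a kinase of the spindle checkpoint, stood at 2.04 and 1.99 in E5.5 and E3.5 EpiSCs, against 2.64 in mES cells. Cdk1, the kinase that starts mitosis, stood at 2.80 and 2.76, against 3.28 in mES cells. On these probes both EpiSC arrays lay below the mES array, by less than 2-fold. A second Cdk1 probe gave a class difference of -1.15, more than 2-fold, and a second Top2a probe gave -0.19. With treatment Top2a stood at 2.94 in E5.5 EpiSCs, 2.71 in E3.5 EpiSCs and 3.36 in mES cells, Bub1b at 1.94, 1.51 and 2.59, and Cdk1 at 2.72, 2.08 and 3.19 in the same order.

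With SB431542 the mitosis genes, too, were mostly lower in the E3.5 line. The median difference was -0.08 in the E5.5 pair, -0.68 in the E3.5 pair and -0.03 in the mES pair, and in the E3.5 pair 12 of 13 were negative, against 10216 of all 16152 genes. On the probe that stands for each gene, only 1 of the 13 was at least 2-fold lower, a smaller share than the 20.1% of all genes. Bub1, a checkpoint kinase, was that gene, at 2.53 in treated and 2.89 in untreated E5.5 EpiSCs, 2.09 in treated and 3.18 in untreated E3.5 EpiSCs, and 2.83 in treated and 2.98 in untreated mES cells. Cdc20, the activator of the anaphase-promoting complex, with CHR letters close to its start, stood at 4.96 in treated and 5.44 in untreated E5.5 EpiSCs, 4.23 in treated and 5.20 in untreated E3.5 EpiSCs, and 5.49 in treated and 5.52 in untreated mES cells. Aurka, a spindle kinase, stood at 4.89 in treated and 5.07 in untreated E5.5 EpiSCs, 4.09 in treated and 5.03 in untreated E3.5 EpiSCs, and 5.06 in treated and 5.08 in untreated mES cells. In the test over both EpiSC lines 0 of 13 passed, with differences from -0.73 for Cdc20 to 0.14 for Aurkb. Ccna2, Ccnb1 and Ccnb2, the A- and B-type cyclins, stood at 0.00, -0.23 and -0.15, though the other Ccnb1 probes gave -0.89 and -0.36. In the E3.5 pair those Ccnb1 probes gave -1.41 and -0.63, a second Cdk1 probe -1.05 and a second Top2a probe -0.53. The 2-fold count thus depends on the probe.

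The size of the E3.5 values depended on how arrays were scaled. By quantile normalization the median in the E3.5 pair was -0.35 for replication and -0.33 for mitosis genes, against -0.17 for all genes. In the E5.5 pair the medians turned positive by quantile normalization, at 0.07 for replication and 0.12 for mitosis genes. Normexp background correction gave -0.67 and -0.49 in the E3.5 pair, against -0.33 for all genes. Normexp also shifted the median of all genes in the E5.5 pair to -0.27 and in the class comparison to 0.14, against -0.06 in both at the 75th percentile. The G1 regulators had a median of 0.51 in the E5.5 pair and 0.08 in the E3.5 pair at the 75th percentile (0.24 and 0.39 by normexp), and in the E5.5 pair 6 of 17 were up and 1 down by 2-fold or more (all genes, 6.68% and 9.07%). In the E3.5 pair 5 of 17 were up and 3 down (all genes, 11.8% and 20.1%). In the mES pair 0 of the 41 genes differed 2-fold (all genes, 1.45% higher and 1.16% lower).

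**Figure D4:**
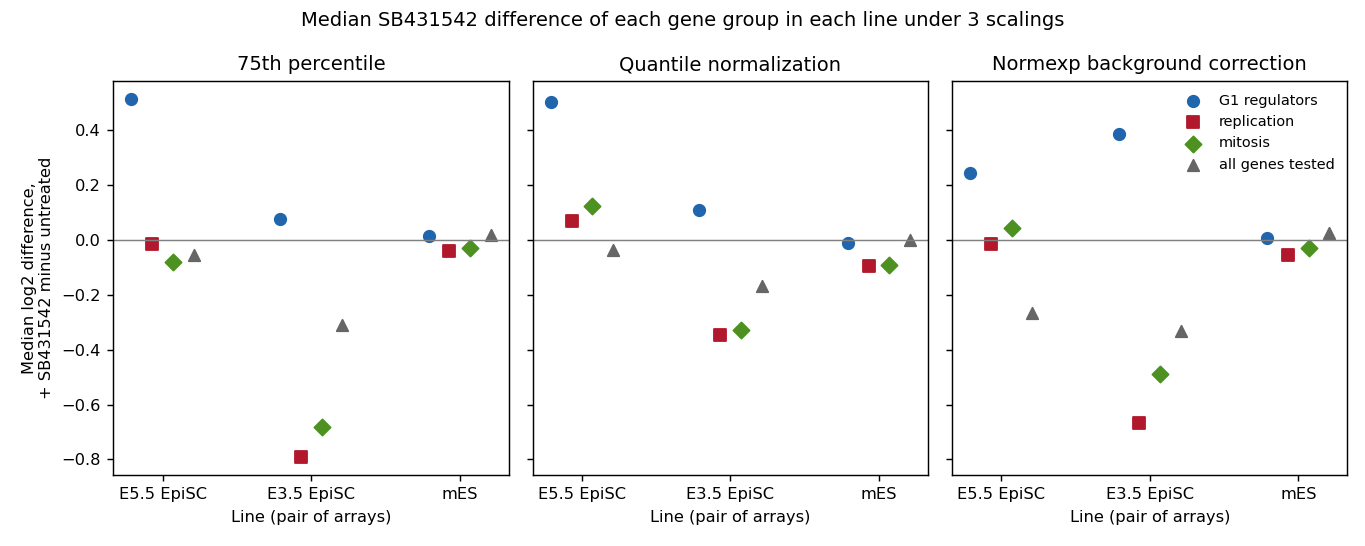
Median log2 difference with SB431542 minus without it for G1 regulators, replication genes, mitosis genes and all 16152 genes tested, in each line (1 pair of arrays), under the 75th percentile, quantile normalization and normexp background correction. In the E3.5 pair the replication median is -0.79, -0.35 and -0.67 under these, below all genes in each, and in the E5.5 and mES pairs it is near 0.

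The EpiSC lines were also set against each other, 2 E5.5 against 2 E3.5 arrays with treatment as a term. Of the 41 genes 0 passed, as did 0% of all genes, and 1 had an unadjusted p under 0.05 (7.85% of all genes). That gene was Cdk2, lower in E5.5 EpiSCs by -0.72 ± 0.24 (adjusted p = 0.572). On a second Cdk2 probe this direction did not hold. Without treatment that probe stood at -2.50 in E5.5 and -2.42 in E3.5 EpiSCs, and with treatment at -2.63 and -3.71. Rb1 stood at -1.37 ± 0.54 (adjusted p = 0.654). With treatment, all 11 replication genes were higher on the E5.5 EpiSC + SB431542 array than on the E3.5 EpiSC + SB431542 array, as were 10362 of all 16152 genes. The median for replication was 0.52, against 0.23 for all genes (by quantile normalization 0.28 against 0.13, with 1 of 11 lower). Without treatment the median was -0.17, against -0.01 for all genes. Line and slide cannot be told apart here, nor can sex if the lines differ in it. Of all genes Xist, expressed in female cells, was the most raised in E5.5 EpiSCs, by 8.82 without and 9.70 with treatment. The Y-linked gene Ddx3y was the lowest in the treated pair, at -7.37. The sex of the lines was not tested.

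Other genes of the same pathways, from lists that do not hold the 41, were tested in the same fits. With SB431542 in EpiSCs, limma called 0 of 23 other G1 and transcription genes, 0 of 40 other replication genes, and 1 of 41 other mitosis genes, against 2.09% of all genes, which is near the share of the mitosis list. The gene was Cdc25b, a phosphatase that activates Cdk1, which rose by 2.06 ± 0.27 (adjusted p = 0.0468). It stood at 3.25 in treated and 1.31 in untreated E5.5 EpiSCs, at 3.56 in treated and 1.39 in untreated E3.5 EpiSCs, and at 0.80 in treated and 0.95 in untreated mES cells. With the line as a block Cdkn1c (p57), a Cip/Kip inhibitor, passed as well, at 1.71 ± 0.28 (adjusted p = 0.0422), where 5.76% of all genes did. The lists' medians were 0.02 for G1 and transcription, -0.37 for replication and -0.06 for mitosis, against -0.19 for all genes. For the other replication genes the median was -0.59 in the E3.5 pair and -0.01 in the E5.5 pair (all genes, -0.31 and -0.06). Between untreated EpiSCs and mES cells 0 genes of these lists passed, with medians of -0.17, -0.26 and -0.27 in the order of the lists above.

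In the treated EpiSC lines markers of other cell types differed as well. Of 12 neuroectoderm markers 4 rose (Hes5, Nr2f1, Pax3 and Zic1) and 0 fell, and with the line as a block Fabp7, Pax6 and Sox11 passed as well, 7 in all. Their summed log2 level was 7.32 in treated and 3.96 in untreated E5.5 EpiSCs, 7.79 in treated and 4.54 in untreated E3.5 EpiSCs, and 1.87 in treated and 2.0 in untreated mES cells. Of 10 markers of post-mitotic neurons, Elavl4 and Tubb3 rose, and with the block 6 did (Dcx, Elavl3, Map2 and Nefm as well). Their summed level was 4.65 in treated and 3.43 in untreated E5.5 EpiSCs, and 6.62 in treated and 4.74 in untreated E3.5 EpiSCs. Of the 10 neuron markers 3 were lower in the E5.5 pair, with Stmn2 the lowest at -1.51, and 1 was lower in the E3.5 pair. Nr2f1 was not well above background on either mES array, nor Snap25 on the E3.5 EpiSC and mES + SB431542 arrays. Pou5f1, Nanog and Utf1, 3 of the 4 markers shared by pluripotent cells, fell. Of 20 fibroblast markers 0 passed in either fit, and their summed level was 7.95 in treated and 7.56 in untreated E5.5 EpiSCs, 7.49 in treated and 7.25 in untreated E3.5 EpiSCs, and 6.64 in treated and 6.22 in untreated mES cells. Single fibroblast markers went both ways, with 13 of 20 lower in the E5.5 pair (median -0.60) and 15 of 20 higher in the E3.5 pair (median 0.68). The part of these cell types in the values of the cell cycle genes was not tested.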

How the data were processed

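Per the labels, total RNA of the 6 cultures was made into Cy3-labelled cRNA for one-colour Agilent arrays. The deposited files give a linear intensity per spot, from which the authors' program, Agilent Feature Extraction, had already taken the background; the file headers name its version 10.7.1.1 and the submitters' processing notes 9.1. Its yes-or-no flags (outlier, saturated, well above background) come from the same step, per the file headers. The deposited table of the whole series repeated these intensities (45018 of 45018 equal on each array), linear and not centred, with column medians of 181.7 to 269.6.

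Outlier spots and control spots were dropped, and spots that repeat a probe were averaged. Values are log2 of the intensity minus the array's 75th percentile. Transcript accessions, stripped of their version, were looked up in RefSeq genes of GRCm38.p6, which named 24373 of 41165 probes and left 16792 unnamed. The probe with the highest mean stands for each of 17015 genes, and 15 of the 41 genes have several probes. The SB431542 difference in EpiSCs differed in sign between probes for Cdk2, Cdc6 and Top2a, and the class difference for Cdc6. The 16152 genes well above background on at least 1 array were fitted in limma 3.58.1 (lmFit, eBayes; R 4.3.3), with Benjamini-Hochberg adjustment over all of them and a threshold of 0.05. Tables were made in Python 3.11.15 with pandas 2.3.3, and the test code was tested on simulated data.

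Since each group has 1 array, a model with 4 arms used the EpiSC lines as replicates (2 residual degrees of freedom), and the lone mES arrays were taken to vary as those do. Line plus treatment was the model for comparisons across lines and between EpiSC lines. The line in the labels pairs each treated with an untreated array, so blocked values stand beside results they change. The labels do not say that cultures were separate, so a p-value measures only how these samples spread, and that spread may be in part technical. In the model with 4 arms it lies between E5.5 and E3.5 EpiSC arrays of the same treatment, where line and slide cannot be told apart. Single pairs of arrays have no test, and their 2-fold shares of all genes leave out a gene that was not well above background where it was brighter.

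The genes and lists were chosen with earlier results of these data known. Values on every array are given for D- and E-type cyclins, Cdk2, Cdk4, Cdk6, the inhibitors Cdkn1b, Cdkn2a, Cdkn2b and Cdkn2c, genes that passed a test, and in each role the 3 with the largest treatment and class differences. Alternatives were normexp background correction (offset 50), quantile normalization, genes above background on all 6 arrays, the mean over probes, each array left out, slide 1 alone, and the line as a block.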

Additional observations from a re-analysis of the deposited data

How the results depend on the processing

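For SB431542 in EpiSCs, 338 genes and 0 of the 41 passed. The counts were 540 genes and 1 of the 41 (E2f2) among genes above background on all 6 arrays, 1 of the 41 (E2f2) by normexp, and 930 genes and 3 of the 41 (Cdk6, E2f2 and Rb1) with the line as a replicate block. Leaving out 1 array gave between 0 and 338 genes: 0 without either treated EpiSC array, 196 without the E3.5 EpiSC array and 245 without the E5.5 EpiSC array. Across the 3 lines the count was 0 with the line and 0 with no replicate block, and between 0 and 930 genes, and between 0 and 3 of the 41, when 1 array was left out. The highest came without either mES array, which leaves the EpiSC pairs, and 3 genes passed without either E5.5 array. For EpiSCs against mES cells, 242 genes and 1 of the 41 passed, 0 of the 41 by quantile normalization, and between 0 and 242 genes and between 0 and 1 of the 41 when 1 array was left out, with 0 without either treated EpiSC array. For E5.5 against E3.5 EpiSCs, 0 passed, and between 0 and 6 genes when 1 array was left out (4 without either mES array, 6 without either E5.5 array). The cause of these moves was not tested. Among marker lists the block added 3 neuroectoderm and 4 neuron markers, Otx2 and Tfcp2l1, and Cdkn1c among other pathway genes; it changed no other call among the 41 genes or these lists.

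Over single genes, 2131 values counted as the same, 11 passed only under the alternative, 3 (all Ccnd2) no longer passed, and 69 moved. A value that passed in neither fit counted as the same if it kept its sign or changed sign by no more than the SE of the main fit. A value without a test counted as the same within that SE. Larger shifts of these kinds counted as moved. Of values that passed in either fit, 0 changed sign. Normexp used the median spot signal, an alternative chosen after seeing the data, since the files hold no mean signal, and the alternative of naming probes by the file's own gene names was not run, since no such column is in the files. Slide 1 alone leaves no residual degrees of freedom in the fit of 4 arms, so it gives values without a test, and it holds no E3.5 EpiSC array.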
